A study of Mus musculus with 24 samples.

Results

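The postnatal change of the normal mouse thyroid between W2 and W4 (2 and 4 weeks of age) was read from 8 arrays, the 4 whose labels give wild type at 4 weeks against the 4 whose labels give wild type at 2 weeks, out of 24 arrays in the series. Each array held RNA of the thyroid gland of 1 male mouse, and the study counts the 4 mice of a group as biological replicates. These mice are Xb130+/+, the controls of a global deletion of Xb130 (gene symbol Afap1l2), an adaptor protein of the thyrocyte cytoplasm; no mouse of the 8 carries the deletion or a treatment, and the study calls them littermates of the Xb130-/- mice. Their strain, and which mice shared a litter, were not given in the sources used here. The 8 Xb130-/- mice of W2 and W4, which carry the deletion in all cells, served for the test of whether the change differs between genotypes, and the 4 Xb130+/+ mice of W12 (3 months in the labels) give the levels that followed. All 23185 genes with a gene symbol were measured and tested.

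The thyroid gland is built of follicles, in which thyrocytes take up iodide, couple it to thyroglobulin at the apical surface and later digest the stored protein to release thyroid hormone. Weaning falls between these ages in mice, and the follicles, the capillary net around them and the connective tissue between them still grow. A dissected gland also carries parathyroid glands, C cells and some of the muscle, fat and thymus that lie against it.

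Values are log2 intensities, so a difference of 1 is a doubling, and they compare mice for 1 gene, not genes with each other. In the text the mice of W2 stand in the order LH7704, LH7706, LH7708, LH7710 and those of W4 in the order LH7712, LH7714, LH7716, LH7718. A gene was called where its adjusted p, from limma with Benjamini-Hochberg adjustment over all genes, was under 0.05, and SE is the standard error of a difference. Groups are said not to overlap, or a gene to be apart, where all 4 values of one age lie above all 4 of the other. Afap1l2 lay at 10.87 to 11.05 at W2 and 10.41 to 10.92 at W4 in Xb130+/+ mice, above all 8 Xb130-/- mice of these ages (9.31 to 9.60 at W2 and 8.97 to 9.501 at W4), as their labels require. It was not called between the ages (log2 difference -0.28 ± 0.11 SE, adjusted p = 0.321).

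Among the defining markers of the tissue, the hormone precursor thyroglobulin (Tg) lay at 13.98 to 13.996 at W2 and 13.96 to 14.02 at W4, near the top of the scale, and the transcription factor Pax8 at 12.64 to 12.98 at W2 and 12.67 to 12.83 at W4. Of the 8 arrays, 6 correlated best with an array of their own age, and LH7710 of W2 and LH7718 of W4 correlated best with each other (r = 0.9949 across genes, where pairs of the same age gave 0.991 to 0.9952). Both had the highest mean of mitosis genes of their age (8.71 and 8.29, where the other 6 lay between 7.11 and 7.985). LH7718 lay with the W2 mice for many genes that set the other W4 mice apart. When LH7718 was left out, 281 genes were called, and for 209 of them (74.4%) its own value was nearer to the mean of W2 than to that of the other 3 W4 mice. For the other 7 arrays, each left out in the same way, this share ranged from 0 to 44.4% of 5 to 45 called genes. LH7718 was singled out after its values were seen, so values without it are given as a description beside those with it.

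Between W2 and W4, 29 of the 23185 genes were called (0.125%), 15 higher (0.0647%) and 14 lower (0.0604%) at W4. Complete separation was commoner, found in 1116 genes (4.81%), with 567 higher (2.45%) and 549 lower (2.37%), and 25 of the 29 called genes were among them. Separation also arises with no age effect. For any gene, 1 of the 35 splits of 8 mice into 4 and 4 (a share of 0.0286) separates them completely. Called differences were mostly moderate, with a median size of 0.80 on the log2 scale, and 4 rose and 2 fell at least 2-fold. Without LH7718 the count was 281 (1.21%), 147 higher (0.634%) and 134 lower (0.578%), and all 29 genes were among them. The calls rested on the other arrays, since 5 of the 29 were kept without LH7708 and 5 without LH7714. Nr1d1, Rragd, Slc6a20a and Cxcl11 were the genes kept on leaving out any 1 of the 8. In a fit of the 8 arrays alone, with no help from the other 16 in estimating the spread, 0 genes were called by limma, although 2050 had an unadjusted p under 0.05. Age accounted for 17.5% of the variance of the centred and scaled values of the 8 arrays (exact permutation test over all 35 splits, one-sided, p = 0.0857, where 0.0286 is the smallest possible), for 21.7% without LH7718 (p = 0.0286), for 19.9% without LH7710 (p = 0.0571) and for 24.8% without both (p = 0.1, the smallest possible with 10 splits). A random split also takes a larger share of the variance when fewer arrays are left, so these shares cannot be compared across numbers of arrays.

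**Figure D1:**
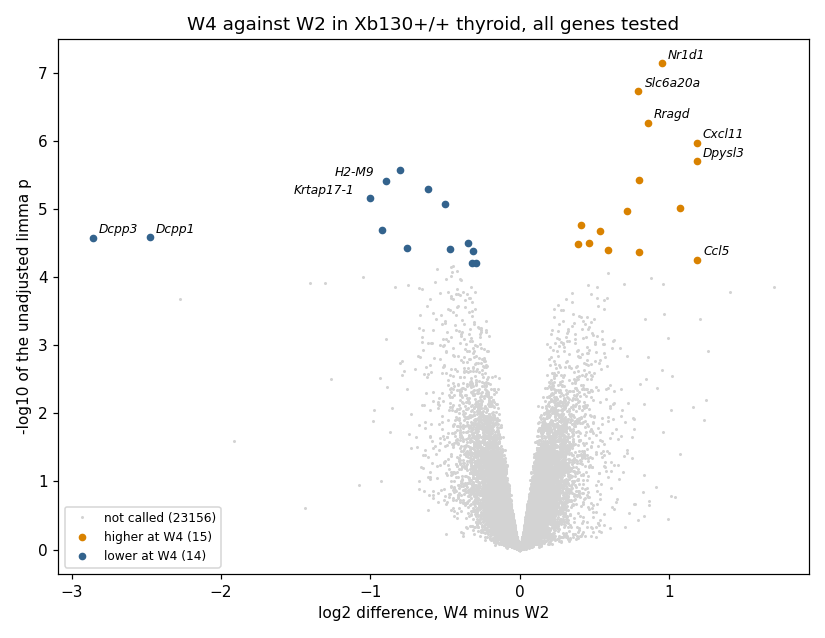
Log2 difference between W4 and W2 (x axis) against −log10 of the unadjusted limma p (y axis) for 23185 genes in Xb130+/+ thyroid. The 15 called genes to the right and the 14 to the left stand above the grey cloud, and Dcpp1 and Dcpp3 lie farthest to the left among called genes.

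**Figure D2:**
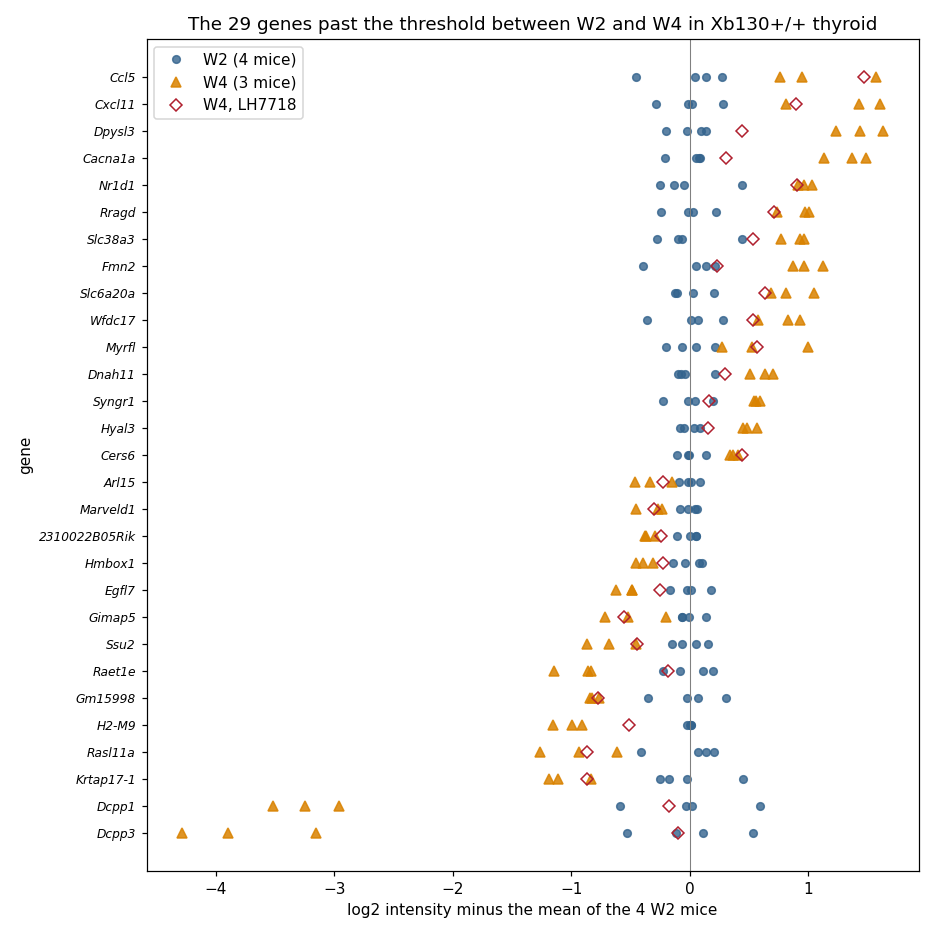
Value in each mouse minus the mean of the 4 W2 mice (x axis, log2) for the 29 called genes. W2 mice are circles, W4 mice are triangles and LH7718 of W4 is an open diamond, which for Dcpp1, Dcpp3, Raet1e and Syngr1 overlaps the circles.

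Among called genes the largest differences belonged to the Dcpp genes (demilune cell and parotid proteins), which encode small secreted proteins known from the salivary glands of mice and lie side by side on chromosome 17. Dcpp3 measured 11.73, 11.32, 11.96 and 12.38 at W2 and 7.95, 7.56, 8.69 and 11.74 at W4. Dcpp1 measured 9.97, 9.37, 9.93 and 10.55 at W2 and 6.43, 6.70, 6.995 and 9.78 at W4. Dcpp2 measured 7.16, 5.82, 7.62 and 7.57 at W2 and 4.10, 4.01, 4.17 and 6.80 at W4. In each gene 3 of the W4 mice lay well below every W2 mouse, and LH7718 lay within the range of the W2 mice. Dcpp3 fell (log2 difference -2.86 ± 0.53 SE, adjusted p = 0.034), as did Dcpp1 (log2 difference -2.48 ± 0.46 SE, adjusted p = 0.034), while Dcpp2 missed the threshold (log2 difference -2.27 ± 0.51 SE, adjusted p = 0.0645). Without LH7718 the difference was -3.78 ± 0.23 SE, adjusted p = 8.71e-09 for Dcpp3, -3.24 ± 0.23 SE, adjusted p = 1.01e-07 for Dcpp1 and -2.95 ± 0.39 SE, adjusted p = 0.000621 for Dcpp2. At W12 Dcpp3 lay at 6.88 to 7.54 and Dcpp1 at 6.32 to 6.74. In the Xb130-/- mice Dcpp3 measured 13.46, 13.71, 13.51 and 13.53 at W2 and 13.45, 13.83, 13.48 and 13.73 at W4, with no call (adjusted p = 0.973). These values lie close to 14.02, the highest value of any gene on the 8 Xb130+/+ arrays, so that only a small rise could be read from them, though a fall could. Dcpp1 and Dcpp2, farther below that value, changed by 0.12 (adjusted p = 0.939) and 0.37 (adjusted p = 0.805) in Xb130-/- mice. The difference between the genotypes' changes did not pass in any of the 3 genes (-2.93 ± 0.75 SE, adjusted p = 0.249 for Dcpp3, -2.60 ± 0.65 SE, adjusted p = 0.238 for Dcpp1 and -2.64 ± 0.72 SE, adjusted p = 0.301 for Dcpp2).

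The values of the 3 genes ran in parallel across mice, so their RefSeq promoter windows (GRCm38.p6, 250 bases before to 50 after an annotated start, plus strand, at chr17:23880626-23880925 for Dcpp1, chr17:23898472-23898771 for Dcpp2 and chr17:23917208-23917507 for Dcpp3) are shown, with capitals for the bases that are not the same in all 3 when aligned, ends that reach past another window included.
Dcpp1: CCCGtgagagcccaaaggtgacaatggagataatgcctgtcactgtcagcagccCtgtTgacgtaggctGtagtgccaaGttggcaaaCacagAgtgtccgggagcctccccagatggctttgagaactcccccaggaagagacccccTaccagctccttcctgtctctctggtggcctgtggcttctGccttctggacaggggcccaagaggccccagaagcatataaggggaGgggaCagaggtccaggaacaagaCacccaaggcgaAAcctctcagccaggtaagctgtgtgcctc
Dcpp2: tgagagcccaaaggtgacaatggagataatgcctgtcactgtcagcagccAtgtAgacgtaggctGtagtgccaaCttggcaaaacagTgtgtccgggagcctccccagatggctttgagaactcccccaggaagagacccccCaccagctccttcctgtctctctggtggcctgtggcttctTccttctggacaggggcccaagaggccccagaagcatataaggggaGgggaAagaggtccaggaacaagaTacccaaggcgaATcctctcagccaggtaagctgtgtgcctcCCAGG
Dcpp3: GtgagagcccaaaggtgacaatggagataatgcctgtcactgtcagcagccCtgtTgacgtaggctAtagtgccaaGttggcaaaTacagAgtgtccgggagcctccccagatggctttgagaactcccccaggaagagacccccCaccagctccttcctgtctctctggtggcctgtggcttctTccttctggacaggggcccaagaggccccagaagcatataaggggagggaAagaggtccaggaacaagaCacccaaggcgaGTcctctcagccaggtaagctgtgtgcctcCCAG
The windows are 93.8% identical between Dcpp1 and Dcpp2, 95.1% between Dcpp1 and Dcpp3 and 96.4% between Dcpp2 and Dcpp3 over the aligned columns, gaps and ends included. The letters TATAAG, searched on both strands, occur in all 3 windows and in 7.43% of the 32851 mouse promoter windows. These windows are promoters, and whether the transcripts of the 3 genes share array probes was not examined. The 3 genes are therefore not counted as independent measurements.

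The rest of the salivary gland list gave no call. Of its 11 measured genes 2 were called lower, both Dcpp genes (0.0604% of all genes were called lower). The acinar water channel Aqp5 measured 10.16 to 10.90 at W2 and 10.21 to 10.71 at W4, the salivary amylase Amy1 6.31 to 7.11 at W2 and 6.64 to 7.14 at W4 and the parotid secretory protein Bpifa2 4.67 to 5.21 at W2 and 4.98 to 5.24 at W4. Mean levels of the list, which include the Dcpp genes with their large differences, ran from 6.34 to 6.84 at W2 and from 5.56 to 6.55 at W4. The median difference of the 11 genes was −0.06. Bulk RNA cannot tell fewer cells of a type from less RNA per cell, here or in the groups that follow.

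Among the genes that rose, the lowest p belonged to Nr1d1, which encodes REV-ERBα, a haem-binding nuclear receptor that represses Arntl (BMAL1) and other genes in the negative limb of the circadian clock. It measured 11.72, 11.03, 11.15 and 11.23 at W2 and 12.25, 12.20, 12.31 and 12.19 at W4, a 1.94-fold rise without overlap (log2 difference 0.95 ± 0.12 SE, adjusted p = 0.00167). The value for LH7718 lay with its age here. In the clock list Nr1d1 was the 1 called gene of 18 (0.0647% of all genes were called higher), with 3 genes apart upwards (2.45% of all genes), 3 apart downwards (2.37%) and a list median of −0.08, where the median over all genes was 0.01. The related receptor Nr1d2 measured 10.64 to 10.83 at W2 and 10.90 to 11.06 at W4 (log2 difference 0.31 ± 0.09 SE, adjusted p = 0.148), and the repressor Bhlhe41 7.92 to 8.59 at W2 and 8.84 to 9.20 at W4 (log2 difference 0.62 ± 0.16 SE, adjusted p = 0.118). The 3 apart downwards were the repressor Cry1 (log2 difference -0.65 ± 0.14 SE, adjusted p = 0.0632, and -0.73 ± 0.15 SE, adjusted p = 0.0192 without LH7718), the period gene Per3 (log2 difference -0.54 ± 0.19 SE, adjusted p = 0.261) and the bZIP repressor Nfil3 (log2 difference -0.38 ± 0.12 SE, adjusted p = 0.216). The activator Arntl measured 9.06, 9.68, 9.62 and 9.80 at W2 and 9.55, 8.86, 8.69 and 9.30 at W4, and the groups overlapped. No source used here gives the hour at which each mouse was killed, and a difference in hour between the groups cannot be told apart from age for clock genes.

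Rragd, Slc6a20a and Slc38a3 also rose. Rragd encodes RagD, a lysosomal GTPase through which amino acids recruit mTORC1, and measured 9.44, 9.25, 9.20 and 8.98 at W2 and 10.22, 10.19, 9.96 and 9.93 at W4 (log2 difference 0.86 ± 0.12 SE, adjusted p = 0.00414). Slc6a20a, a sodium-coupled carrier of proline and other imino acids, measured 6.94, 6.79, 7.12 and 6.81 at W2 and 7.97, 7.73, 7.60 and 7.56 at W4 (log2 difference 0.80 ± 0.10 SE, adjusted p = 0.00217). Slc38a3, the glutamine carrier SNAT3, measured 10.39, 9.88, 9.85 and 9.67 at W2 and 10.72, 10.92, 10.88 and 10.49 at W4 (log2 difference 0.80 ± 0.13 SE, adjusted p = 0.0111). The groups did not overlap in any of them, and the genes rose 1.81-fold, 1.74-fold and 1.74-fold. Slc6a20a has a close copy, Slc6a20b, with which it may share probes. The amino acid carriers measured among the thyroid hormone genes, Slc7a5, Slc3a2 and Slc16a10, were not called, and Slc7a5 lay at 8.89 to 9.42 at W2 and 9.07 to 9.18 at W4.

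The chemokines Cxcl11, a ligand of CXCR3, and Ccl5 (RANTES), which attracts T cells and monocytes, both rose 2.28-fold. RefSeq annotates Cxcl11 as a transcribed pseudogene in the reference strain, so the value is of its RNA. Cxcl11 measured 7.66, 7.36, 7.39 and 7.09 at W2 and 8.98, 8.81, 8.19 and 8.27 at W4 (log2 difference 1.19 ± 0.17 SE, adjusted p = 0.00616). Ccl5 measured 6.27, 6.77, 6.86 and 6.99 at W2 and 7.67, 8.30, 7.48 and 8.20 at W4 (log2 difference 1.19 ± 0.24 SE, adjusted p = 0.0479), a call that was lost on leaving out any 1 of 7 of the 8 arrays. The groups did not overlap in either gene. The other CXCR3 ligands Cxcl9 (7.34 to 7.61 at W2 and 7.52 to 8.18 at W4) and Cxcl10 (7.30 to 7.79 at W2 and 7.33 to 8.16 at W4) overlapped. Wfdc17, a small secreted protein of the WAP family expressed by macrophages, rose as well, and measured 8.78, 9.42, 9.14 and 9.20 at W2 and 9.97, 10.06, 9.71 and 9.67 at W4 (log2 difference 0.72 ± 0.12 SE, adjusted p = 0.0192). Of 20 antigen presentation genes 0 were called, 4 were apart upwards (2.45% of all genes were) and 0 downwards, and their median was 0.16. The 4 were the class II genes H2-Aa (log2 difference 0.55 ± 0.16 SE, adjusted p = 0.163), H2-Ab1 (log2 difference 0.45 ± 0.12 SE, adjusted p = 0.118) and H2-Eb1 (log2 difference 0.503 ± 0.13 SE, adjusted p = 0.112) and the class I gene H2-K1 (log2 difference 0.23 ± 0.05 SE, adjusted p = 0.076). Without LH7718 2 genes of the list were called, both higher (0.634% of all genes were called higher in that fit). They were H2-K1 (0.24 ± 0.06 SE, adjusted p = 0.0462) and the class I gene H2-Q7 (0.86 ± 0.20 SE, adjusted p = 0.0388). Of 30 interferon-induced genes, 0 were called or apart, with a median of 0.14, and 1, the GTPase gene Mx2, was called higher without LH7718 (0.634% of all genes were). Markers of immune cells were set beside these genes, and means of the macrophage list ran from 8.39 to 8.62 at W2 and 8.32 to 8.503 at W4, and those of the thymocyte list from 5.97 to 6.44 and 6.06 to 6.70. No gene of either list was called, and their part in the chemokine result was not tested.

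Of the other called genes that rose, Dpysl3 (CRMP4), which binds tubulin and actin in growth cones, measured 9.76, 9.64, 9.80 and 9.46 at W2 and 11.30, 11.10, 10.90 and 10.10 at W4 (log2 difference 1.19 ± 0.18 SE, adjusted p = 0.00916). Cacna1a, the pore subunit of P/Q-type calcium channels, measured 7.93, 7.63, 7.92 and 7.90 at W2 and 8.98, 9.33, 9.22 and 8.15 at W4 (log2 difference 1.08 ± 0.19 SE, adjusted p = 0.0187). Fmn2, a formin that nucleates actin, measured 7.62, 7.46, 7.54 and 7.01 at W2 and 8.53, 8.28, 8.37 and 7.63 at W4 (log2 difference 0.80 ± 0.15 SE, adjusted p = 0.0376). Dnah11, a dynein heavy chain of motile cilia, measured 6.60, 6.31, 6.34 and 6.28 at W2 and 7.02, 7.08, 6.89 and 6.68 at W4 (log2 difference 0.54 ± 0.10 SE, adjusted p = 0.0307). In these 4 genes, as in Rragd, Slc38a3, Slc6a20a, Wfdc17, Hyal3 and Nr1d1, LH7718 lay above every W2 mouse but was the lowest W4 mouse. Without LH7718 the difference of Dpysl3 was 1.44 ± 0.14 SE, adjusted p = 1.19e-05 and that of Cacna1a 1.33 ± 0.14 SE, adjusted p = 3.73e-05.

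The remaining genes that rose had smaller differences. Myrfl, related to the myelin regulatory factor Myrf, was dim and measured 4.25 to 4.66 at W2 and 4.72 to 5.45 at W4 (log2 difference 0.59 ± 0.11 SE, adjusted p = 0.0376). Hyal3, of the hyaluronidase family, measured 8.72 to 8.89 at W2 and 8.95 to 9.37 at W4 (log2 difference 0.41 ± 0.07 SE, adjusted p = 0.0285). Cers6, a ceramide synthase, measured 11.88 to 12.12 at W2 and 12.33 to 12.43 at W4 (log2 difference 0.39 ± 0.07 SE, adjusted p = 0.0365). Syngr1, a synaptogyrin of small vesicles, measured 7.96, 8.12, 7.91 and 7.70 at W2 and 8.48, 8.51, 8.46 and 8.08 at W4 (log2 difference 0.46 ± 0.09 SE, adjusted p = 0.0365), and LH7718 overlapped with W2. The transmembrane gene Tmem232, chosen after its values were seen, measured 5.66, 5.51, 5.56 and 5.13 at W2 and 7.90, 7.33, 6.76 and 5.51 at W4. It missed the threshold with LH7718 (log2 difference 1.41 ± 0.31 SE, adjusted p = 0.0632) and passed it without (1.86 ± 0.21 SE, adjusted p = 9.68e-05).

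Among the genes that fell, Krtap17-1, a keratin-associated protein of the hair cortex, measured 8.41, 8.33, 8.56 and 9.04 at W2 and 7.40, 7.47, 7.75 and 7.72 at W4, 2-fold lower at W4 (log2 difference -0.9997 ± 0.17 SE, adjusted p = 0.0161). H2-M9, a non-classical MHC class I gene with close relatives that may share its probes, measured 10.86, 10.86, 10.85 and 10.82 at W2 and 9.94, 9.86, 9.70 and 10.34 at W4 (log2 difference -0.89 ± 0.14 SE, adjusted p = 0.0111). Rasl11a, a small Ras-like GTPase, measured 8.23, 8.85, 8.71 and 8.78 at W2 and 8.03, 7.71, 7.38 and 7.77 at W4 (log2 difference -0.92 ± 0.17 SE, adjusted p = 0.0307). In these 3 the groups did not overlap, and LH7718 was the W4 mouse nearest to W2 only in H2-M9. Raet1e, which encodes a ligand of the NKG2D receptor of natural killer cells, fell with overlap (6.64, 6.78, 6.97 and 7.06 at W2 and 6.03, 6.005, 5.72 and 6.68 at W4, log2 difference -0.76 ± 0.14 SE, adjusted p = 0.0376).

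Further called decreases were small. Ssu2 measured 8.40 to 8.71 at W2 and 7.68 to 8.10 at W4 (log2 difference -0.61 ± 0.10 SE, adjusted p = 0.0131) and Gimap5, a GTPase needed for lymphocyte survival, 8.64 to 8.84 at W2 and 7.99 to 8.51 at W4 (log2 difference -0.498 ± 0.08 SE, adjusted p = 0.0175). Hmbox1, a homeobox protein that binds telomere repeats, measured 10.80 to 11.04 at W2 and 10.49 to 10.71 at W4 (log2 difference -0.35 ± 0.07 SE, adjusted p = 0.0365). Marveld1, a membrane protein with a MARVEL domain, measured 10.58 to 10.73 at W2 and 10.22 to 10.43 at W4 (log2 difference -0.31 ± 0.06 SE, adjusted p = 0.0376), and Arl15, a small GTPase of the ARF family, 10.43 to 10.60 at W2 and 10.05 to 10.37 at W4 (log2 difference -0.29 ± 0.06 SE, adjusted p = 0.049). The groups did not overlap in these 5 genes, and LH7718 was the W4 mouse nearest to W2 in Ssu2 and Hmbox1. Besides Egfl7, described with the endothelial genes, the other called genes that fell were 2 without an assigned function (1 with a Gm and 1 with a Rik name).

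The lists of blood vessel and connective tissue genes had medians below that of all genes, with few calls. In the endothelial list 1 of 20 genes was called (0.0604% of all genes were called lower), 5 were apart downwards (2.37% of all genes were) and 0 upwards, and the median was −0.26. All 20 differences lay below 0, as did those of 11033 of the 23185 genes tested. Genes of 1 cell type can move together, so these are not 20 separate results. The called gene was Egfl7, a matrix protein secreted by endothelial cells, which measured 10.51, 10.65, 10.69 and 10.85 at W2 and 10.19, 10.05, 10.18 and 10.42 at W4 (log2 difference -0.46 ± 0.09 SE, adjusted p = 0.0376). The other 4 apart were Robo4 (log2 difference -0.45 ± 0.09 SE, adjusted p = 0.0521), Plvap, the protein of fenestral diaphragms in capillaries (log2 difference -0.36 ± 0.08 SE, adjusted p = 0.0649), the junction protein Esam (log2 difference -0.33 ± 0.09 SE, adjusted p = 0.141) and the transcription factor Erg (log2 difference -0.20 ± 0.07 SE, adjusted p = 0.252). Mean levels of the list were 10.66, 10.62, 10.82 and 10.97 at W2 and 10.52, 10.37, 10.41 and 10.65 at W4, so that LH7718 alone lay within the range of W2. Without it 6 of the 20 genes were called, all lower (0.578% of all genes were called lower in that fit). Among them were the TGF-β co-receptor Eng (-0.54 ± 0.08 SE, adjusted p = 0.00199) and the tight junction protein Cldn5 (-0.82 ± 0.15 SE, adjusted p = 0.0106).

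Of 16 elastic fibre genes 0 were called, 4 were apart downwards (2.37% of all genes were) and 0 upwards, and the median was −0.17. The list was mixed in direction, with 9 differences below 0 and 7 above. The elastin gene Eln measured 9.23, 9.73, 9.75 and 10.28 at W2 and 8.41, 8.52, 8.49 and 9.39 at W4 (log2 difference -1.05 ± 0.22 SE, adjusted p = 0.0624), and LH7718 lay within the W2 range. The microfibril genes Mfap5 (log2 difference -0.55 ± 0.11 SE, adjusted p = 0.0552) and Mfap2 (log2 difference -0.67 ± 0.15 SE, adjusted p = 0.0632) and the fibre assembly genes Fbln5 (log2 difference -0.47 ± 0.11 SE, adjusted p = 0.0768) and Ltbp4 (log2 difference -0.32 ± 0.07 SE, adjusted p = 0.0822) did not overlap between ages. Without LH7718, 5 of the 16 were called lower (0.578% of all genes were in that fit), Eln with -1.28 ± 0.20 SE, adjusted p = 0.00324, and 1 higher (0.634% of all genes were), Emilin2 (0.61 ± 0.08 SE, adjusted p = 0.00074). Of 42 genes of fibrillar collagens and their processing 0 were called, 1 was apart upwards and 2 downwards (median −0.14). Of 27 basement membrane genes 0 were called and 1 was apart downwards (median −0.18). Over all genes 2.45% were apart upwards and 2.37% downwards. Without LH7718, 3 basement membrane genes were called lower (Col4a2, Lama4 and Nid1) and 1 higher (Smoc2), and 1 gene of the collagen list was called lower (Lox) and 1 higher (Tnc). The shares over all genes in that fit were again 0.578% lower and 0.634% higher.

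Of 33 imprinted and juvenile growth genes 0 were called, 2 were apart downwards (2.37% of all genes were) and 0 upwards, and the median was −0.13. The largest difference belonged to Igf2bp3, which encodes a fetal binding protein of Igf2 and other mRNAs. It measured 7.74, 7.37, 7.94 and 8.66 at W2 and 6.51, 5.96, 5.89 and 7.73 at W4 (log2 difference -1.40 ± 0.30 SE, adjusted p = 0.063), and without LH7718 the difference was -1.81 ± 0.23 SE, adjusted p = 0.000488. The growth factor gene Igf2 measured 9.05, 9.25, 9.27 and 10.02 at W2 and 8.60, 8.39, 8.69 and 9.87 at W4 (log2 difference -0.51 ± 0.25 SE, adjusted p = 0.499), with LH7718 above 3 of the W2 mice. The 2 genes apart were the glypican Gpc3 (log2 difference -0.505 ± 0.14 SE, adjusted p = 0.155) and Phlda2 (log2 difference -0.37 ± 0.10 SE, adjusted p = 0.136). Without LH7718, 4 genes of the list were called, all lower (0.578% of all genes were called lower in that fit). They were Igf2, Igf2bp3, the long RNA Meg3 (-0.72 ± 0.15 SE, adjusted p = 0.022) and the zinc finger gene Zim1 (-1.21 ± 0.26 SE, adjusted p = 0.0272). Of 21 immediate-early genes 0 were called, 1 was apart downwards (2.37% of all genes were) and the median was −0.21. The gene apart was Klf2, a transcription factor of endothelial and immune cells (9.02, 9.33, 9.28 and 9.37 at W2 and 8.96, 8.66, 8.87 and 8.86 at W4, log2 difference -0.41 ± 0.09 SE, adjusted p = 0.0632). Without LH7718 3 of these genes were called, all lower (Btg2, Klf2 and Klf4), where 0.578% of all genes were called lower. Of 47 mitosis genes 0 were called or apart, and Mki67, the proliferation antigen Ki-67, measured 8.92, 8.77, 9.96 and 10.94 at W2 and 9.28, 9.42, 8.90 and 10.53 at W4, with the highest value of each age in LH7710 and LH7718.

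**Figure D3:**
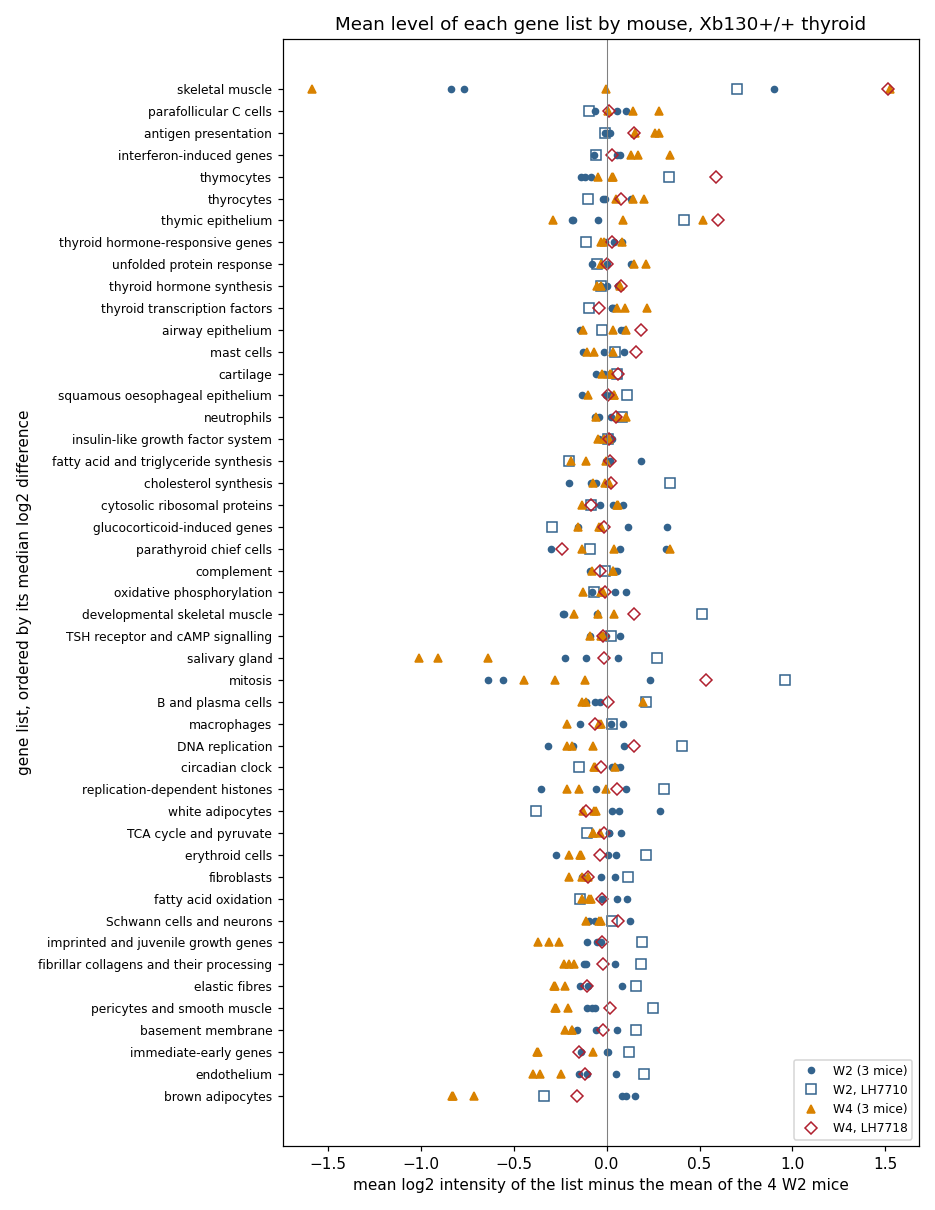
Mean log2 intensity of each of 47 gene lists in each mouse, minus the mean of the 4 W2 mice (x axis), with lists ordered by their median log2 difference (y axis). Filled circles are 3 W2 mice, the open square is LH7710, triangles are 3 W4 mice and the open diamond is LH7718. Brown adipocyte, salivary gland and endothelial lists lie left of 0 in the triangles, while the skeletal muscle list is spread on both sides in both ages. The salivary gland mean includes the Dcpp genes.

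Brown adipocyte markers had the lowest median of all lists, −0.63, with 0 of 10 called and 1 apart downwards (2.37% of all genes were). Ucp1, the uncoupling protein of brown fat, measured 12.55, 12.53, 12.61 and 12.44 at W2 and 11.24, 10.96, 11.21 and 12.41 at W4, so that the groups were apart by a narrow margin at LH7718, and the fitted spread over all 24 arrays was wide (log2 difference -1.07 ± 0.65 SE, adjusted p = 0.639). Elovl3, a fatty acid elongase of the same cells, measured 9.998, 9.26, 9.46 and 8.86 at W2 and 6.88, 7.37, 6.67 and 9.01 at W4 (log2 difference -1.91 ± 0.79 SE, adjusted p = 0.386). The list's mean ran from 9.68 to 10.17 at W2, from 9.19 to 9.31 in 3 W4 mice, and was 9.86 in LH7718. Of 10 white adipocyte markers 0 were called. The adipokine genes resistin (Retn), at 9.46, 9.43, 8.29 and 8.15 at W2 and 10.27, 10.24, 10.11 and 9.54 at W4 (log2 difference 1.21 ± 0.29 SE, adjusted p = 0.0855), and leptin (Lep), at 7.52, 8.08, 8.02 and 7.16 at W2 and 6.03, 6.46, 6.20 and 7.06 at W4 (log2 difference -1.26 ± 0.38 SE, adjusted p = 0.191), were apart in opposite directions. Skeletal muscle markers varied by mouse rather than by age, with list means of 7.79 to 9.53 at W2 and 7.04 to 10.15 at W4 (0 of 20 called). The median of this list was 0.30, with all 20 differences above 0, and it was −0.09 without LH7718. Myh1, a fast myosin heavy chain, measured 7.49, 10.28, 7.56 and 10.84 at W2 and 5.47, 8.57, 10.31 and 11.87 at W4. The parathyroid hormone gene Pth lay at 13.36 to 13.46 at W2 and 13.41 to 13.45 at W4. These values are near the top of the scale, so that only a small rise could be read from them. The parathyroid list had means of 10.87 to 11.49 at W2 and 10.93 to 11.51 at W4. The part of these tissues in the results above was not tested.

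No gene of the hormone-making machinery of the follicle passed the test. Of 22 measured thyroid hormone synthesis genes 0 were called, 1 was apart upwards (2.45% of all genes were) and 0 downwards, and the median was 0.06. Of 9 thyroid transcription factors 0 were called, 1 was apart upwards (2.45% of all genes were), and the median was 0.05. The 95% interval of the log2 difference was -0.07 to 0.09 for Tg, whose values lay at the top of the scale of these arrays (highest value of any gene 14.02), so that a rise could not be read from them, -0.34 to 0.53 for the iodide symporter Slc5a5, -0.001 to 0.36 for the thyrotropin receptor Tshr, -0.02 to 0.18 for the deiodinase of iodotyrosines Iyd and 0.003 to 0.19 for the apical anion carrier Slc26a7. The deiodinase gene Dio1, which converts thyroxine to the active hormone, was the gene apart. It measured 12.16, 12.19, 12.13 and 11.91 at W2 and 12.26, 12.46, 12.32 and 12.32 at W4 (log2 difference 0.25 ± 0.07 SE, adjusted p = 0.161).

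Duoxa1 and Duox2, of the system that makes hydrogen peroxide for iodination, had the lowest adjusted p of the synthesis list. The oxidase Duox2 measured 9.37, 9.11, 9.002 and 8.89 at W2 and 9.59, 9.71, 9.73 and 9.19 at W4 (log2 difference 0.46 ± 0.11 SE, adjusted p = 0.0969). Its paralog Duox1 measured 7.57, 7.47, 7.39 and 7.72 at W2 and 6.74, 6.57, 7.43 and 7.71 at W4 (log2 difference -0.42 ± 0.18 SE, adjusted p = 0.394). The maturation factor of Duox1, Duoxa1, measured 9.58, 9.63, 9.41 and 9.79 at W2 and 8.93, 8.72, 8.94 and 9.59 at W4 (log2 difference -0.56 ± 0.13 SE, adjusted p = 0.0855), and that of Duox2, Duoxa2, 11.49, 11.33, 11.20 and 10.96 at W2 and 11.06, 11.42, 11.57 and 11.18 at W4 (log2 difference 0.06 ± 0.12 SE, adjusted p = 0.94). In Duox2, Duox1 and Duoxa1, LH7718 lay within the W2 range, and without it the differences were 0.58 ± 0.10 SE, adjusted p = 0.00698 for Duox2, -0.74 ± 0.10 SE, adjusted p = 0.000621 for Duoxa1 and -0.62 ± 0.16 SE, adjusted p = 0.057 for Duox1.

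The remaining synthesis genes had 95% intervals that included 0 or nearly so. The pendrin gene Slc26a4 was dim, at 4.89 to 5.21 at W2 and 5.14 to 5.40 at W4 (0.01 to 0.51). The interval was -0.18 to 0.15 for the chloride channel Ano1, -0.32 to 0.01 for the potassium channel Kcnq1 and -0.19 to 0.21 for its subunit Kcne2. It was -0.31 to 0.30, -0.45 to 0.25 and -0.06 to 0.22 for the hormone and amino acid carriers Slc16a10, Slc7a5 and Slc3a2, and -0.06 to 0.49 for megalin (Lrp2), a receptor of thyroglobulin. For the lysosomal proteases that digest thyroglobulin it was -0.01 to 0.17 (Ctsb), -0.04 to 0.17 (Ctsd) and -0.17 to 0.08 (Ctsl), and for the activating deiodinase Dio2 -0.63 to 0.23.

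Of the transcription factors that set up the gland, Glis3, which thyrocytes need to respond to thyrotropin, was the gene apart, at 10.38, 10.38, 10.14 and 10.34 at W2 and 10.70, 10.88, 10.66 and 10.73 at W4 (log2 difference 0.43 ± 0.11 SE, adjusted p = 0.106). The interval was -0.10 to 0.19 for Nkx2-1, -0.15 to 0.14 for Pax8, -0.07 to 0.17 for Foxe1 and -0.10 to 0.33 for Hhex, the 4 factors of thyroid specification. For Sox9 it was -0.03 to 0.32, for Isl1 -0.16 to 0.23, for Eya1 -0.34 to 0.36 and for Tbx1 -0.39 to 0.25, so differences of more than 2-fold lay outside all of these intervals.

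**Figure D4:**
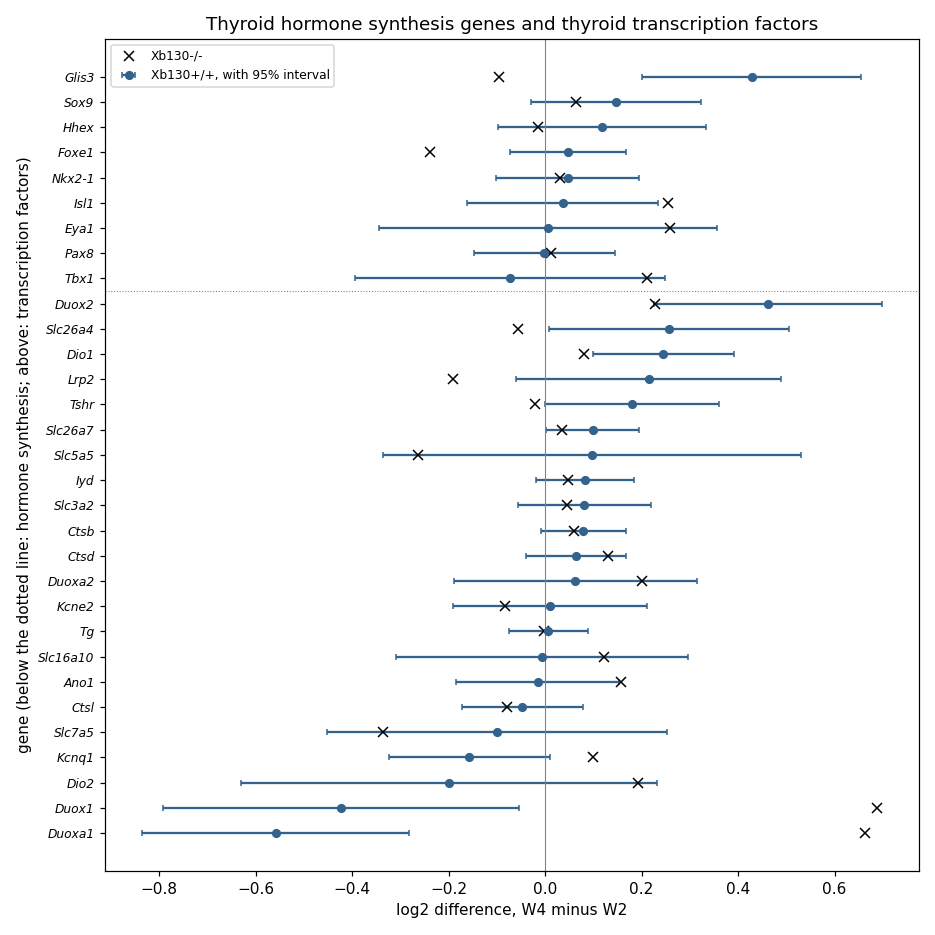
Log2 difference between W4 and W2 (x axis) for 22 thyroid hormone synthesis genes and 9 thyroid transcription factors. Circles with bars are Xb130+/+ with the 95% interval, crosses are Xb130-/-; Duoxa1 lies at -0.56 in the former and 0.66 in the latter.

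Whether the change from W2 to W4 differed by genotype was asked by the difference between the genotypes' changes, which was called for 8 genes (0.0345%). Krtap17-1 was 8.41, 8.33, 8.56 and 9.04 at W2 and 7.40, 7.47, 7.75 and 7.72 at W4 in Xb130+/+ mice, and 8.06, 7.97, 8.17 and 7.4999 and 8.96, 9.35, 8.81 and 8.64 in Xb130-/- mice, so that the changes ran in opposite directions (difference of the changes -2.01 ± 0.24 SE, adjusted p = 0.000792). Dpysl3 changed by 1.19 in Xb130+/+ and -0.27 in Xb130-/- mice (difference 1.45 ± 0.26 SE, adjusted p = 0.0407). Dnah11 changed by 0.54 and -0.32 (difference 0.86 ± 0.14 SE, adjusted p = 0.0253). These genes and the gene with a Gm name were also called within Xb130+/+ mice.

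The other 4 were not called within Xb130+/+ mice. Car4, a membrane carbonic anhydrase, measured 10.43 to 10.97 at W2 and 10.42 to 10.83 at W4 in Xb130+/+ mice, against 8.93 to 9.52 and 10.51 to 10.65 in Xb130-/- mice (difference -1.47 ± 0.18 SE, adjusted p = 0.000792). Foxj1, the master regulator of motile cilia, had changes of 0.13 and -0.85 (difference 0.98 ± 0.17 SE, adjusted p = 0.0302). Lrrc26, an auxiliary subunit of BK potassium channels, had changes of -0.40 and 0.54 (difference -0.94 ± 0.17 SE, adjusted p = 0.0407). Duoxa1 measured 9.76, 9.71, 9.70 and 9.40 at W2 and 10.38, 10.43, 10.20 and 10.22 at W4 in Xb130-/- mice, without overlap, beside the Xb130+/+ values above (difference -1.22 ± 0.19 SE, adjusted p = 0.0154).

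Nr1d1 changed by 0.95 in Xb130+/+ and by 0.95 in Xb130-/- mice (difference 0.001 ± 0.17 SE, adjusted p = 0.999). The thymocyte list averaged 7.58 to 8.22 in 3 of the W2 Xb130-/- mice and 8.14 in 1 of W4, where the Xb130+/+ mice of these ages lay at 5.97 to 6.70. Without the 6 Xb130-/- arrays of the series that were high in these markers, which leaves 1 Xb130-/- array at W2, 0 differences were called by limma and 1417 had an unadjusted p under 0.05. Leaving out LH7718 gave 29 called differences. In the 16 arrays of these ages alone, Krtap17-1 and Car4 kept their call.

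**Figure D5:**
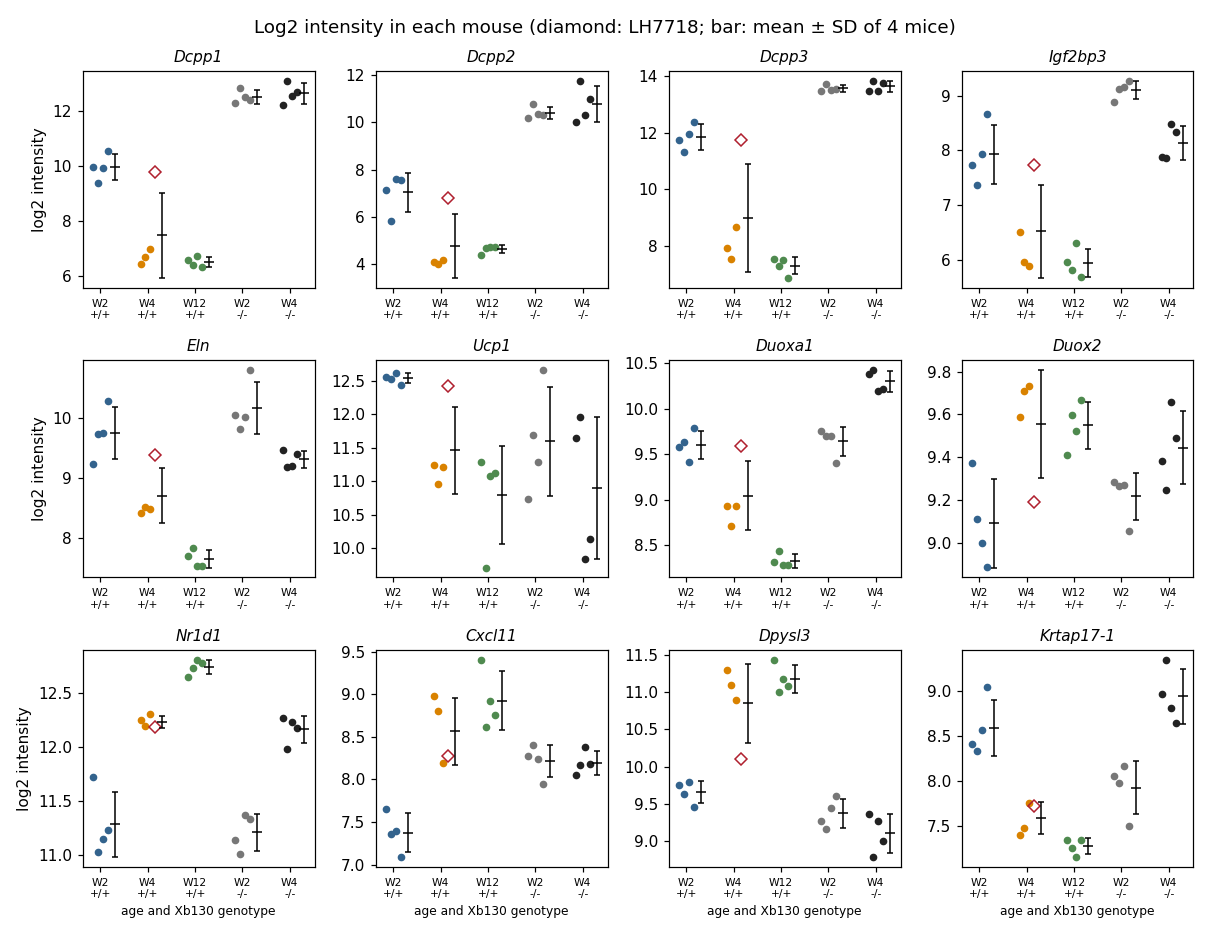
Log2 intensity (y axis) of 12 genes in each mouse by age and Xb130 genotype (x axis), with the mean ± SD of the 4 mice of a group at the right of its points and LH7718 as an open diamond. The diamond lies with the W2 Xb130+/+ mice for the Dcpp genes, Igf2bp3, Eln, Ucp1, Duoxa1 and Duox2, and with the W4 mice for Nr1d1, Cxcl11 and Krtap17-1.

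For scale, the following interval in Xb130+/+ mice, W4 to W12, had 2347 called genes (10.1%), 1257 higher (5.42%) and 1090 lower (4.7%), and 27.7% of the variance lay between those ages. It shares the W4 mice, LH7718 included, with the comparison above, so values are only set side by side. Nr1d1 had log2 differences of 0.95 before and 0.51 after W4 (with the adjusted p after W4 in parentheses, 0.00924), Rragd 0.86 and 0.59 (0.00427), Slc38a3 0.80 and 0.54 (0.0115), Slc6a20a 0.80 and 0.38 (0.0227), Gimap5 -0.498 and -0.496 (0.00113) and Ssu2 -0.61 and -0.44 (0.00912). Cxcl11 had 1.19 and 0.36 (0.212), Dpysl3 1.19 and 0.33 (0.295) and Egfl7 -0.46 and 0.01 (0.969). In the lists, 0 of 47 mitosis genes were called before W4 and 25 lower after it, 0 and 19 of 42 fibrillar collagen genes, and 0 and 13 of 27 basement membrane genes. Mki67 measured 7.52, 8.001, 7.70 and 7.25 at W12 and Col1a1, a chain of type I collagen, 9.51, 9.72, 9.27 and 9.37, each below all 8 younger mice (8.77 to 10.94 at W2 and 8.90 to 10.53 at W4 for Mki67, and 10.85 to 11.56 at W2 and 10.49 to 11.14 at W4 for Col1a1).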

How the data were processed

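The authors made the deposited log2 values from Affymetrix Mouse Gene 2.0 ST arrays by robust multiarray average in oligo, which corrects background, quantile-normalizes all 24 arrays together and summarizes each probe set by median polish. No source used here gives the version of oligo. Probe intensities were not used here, so signal over background is unknown, and the number of arrays limits the precision. Quantile normalization across all ages and genotypes sets every array to the same distribution.

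From these values, limma 3.58.1 in R 4.3.3 fitted 1 mean for each of 6 groups over 24 arrays (18 residual and 2.85 prior degrees of freedom), with the Benjamini-Hochberg adjustment across 23185 genes. The fit was tested on simulated data. Symbols were matched by gene number to RefSeq GRCm38.p6 (all 23185), and 2021 of 25206 probe sets without a symbol were left out. Groups come from the labels, which give no batch.

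The members and gene lists were chosen with earlier results of these data known. Named genes are, of those called without overlap, the 12 largest increases and 12 largest decreases, all thyroid hormone synthesis genes and thyroid transcription factors, Afap1l2, up to 6 genes in each direction whose change differed between genotypes, and markers of nearby tissues. Other called genes (Hyal3, Cers6, Syngr1, Raet1e, Dcpp1 and Dcpp3) and uncalled list members were named after their values were seen. Lists are described by counts and medians, with no set test. Alternatives were other sets of arrays, variance models, weights, filters, scalings and a fold limit of 1.5, and leaving out each array in turn.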

Additional observations from a re-analysis of the deposited data

Results flagged for a closer look

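In 222 comparisons of 1 mouse with the other 3 of its group (named genes and list means at W2 and W4), 12 had a gap to the nearest mouse, as a share of the group's range, above Dixon's 95% critical value. Chance gives about 1 in 20, so 12 of 222 is close to the number due by chance. The cases are listed, and their count alone marks no mouse as unusual. LH7710 was the mouse apart at W2 in 5 of them. Its list mean was 9.68 for brown adipocytes (gap ratio 0.857, next mouse 10.1), 9.95 for pericytes and smooth muscle (0.887, next 9.63), 6.44 for thymocytes (0.89, next 6.02) and 10.5 for thyroid transcription factors (0.923, next 10.62), and its Ctsl value was 12.97 (0.843, next 12.85). LH7718 was the mouse apart at W4 in 4, with 8.92 for Kcnq1 (0.85, next 8.64), 9.78 for Dcpp1 (0.832, next 6.995), 8.08 for Syngr1 (0.886, next 8.46) and a thymocyte mean of 6.70 (0.87, next 6.14). The other 3 were Cacna1a in LH7706 at W2 (7.63, ratio 0.886), the TSH receptor and cAMP signalling mean in LH7716 (9.30, ratio 0.838) and the oxidative phosphorylation mean in LH7712 (10.24, ratio 0.833), both at W4.

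For 8 genes the change from W2 to W4 differed between Xb130+/+ and Xb130-/- mice by limma, as tested by the difference of the changes on the log2 scale. It was 1.45 for Dpysl3, 0.86 for Dnah11, 0.98 for Foxj1, −2.01 for Krtap17-1, −1.05 for Gm15998, −1.22 for Duoxa1, −1.47 for Car4 and −0.94 for Lrrc26. In the 16 arrays of these ages alone, Krtap17-1 and Car4 remained called (adjusted p = 0.0117 for both).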

How the results depend on the processing

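Counts of called genes depended strongly on the setting, while log2 differences of the 29 called genes kept their sign in every alternative. Fits with fewer groups, the trended and robust variance model or fewer genes use the same 8 values, so these differences cannot change there. The kept sign is thus no test of the calls. The counts are given as higher, lower, and differing between genotypes, against 15, 14 and 8 as reported. Fitting only the arrays compared gave 0, 0 and 2, and only the 12 Xb130+/+ arrays 4 and 2. A trended and robust variance model gave 41 and 60, array weights 68 and 96, and removal of the dimmest 30% of genes 32 and 59 (35.2% of calls higher, against 51.7%). Quantile normalization again within W2 and W4 gave 3, 0 and 2, scaling by array medians 13, 9 and 3, and a fold limit of 1.5 left 8 genes lower. All other counts in these settings stayed within 1.5 times. Leaving out 1 array gave 5 to 147 higher, 0 to 134 lower and 2 to 29 differing; the highest values are those without LH7718, and those without LH7708 were 5 and 0. Added after the data were seen, leaving out LH7710 and LH7718 gave 48, 28 and 27, and leaving out the 6 Xb130-/- arrays high in thymocyte markers gave 9 higher and 0 differing. The causes were not tested. The 2347 genes called between W4 and W12 became 1483 with the arrays compared alone, 1513 with the 12 Xb130+/+ arrays, 387 with the fold limit, 1400 without LH7710 and LH7718, and 1221 to 2030 on leaving out 1 array. Of the 29 called genes, 29 kept their call with array weights, with the trended robust model and without LH7718, 5 with the 12 Xb130+/+ arrays and 3 after quantile normalization within W2 and W4. Nr1d1, Rragd, Slc6a20a and Cxcl11 kept theirs on leaving out any 1 array, and the other 25 lost it in at least 1 such fit. No paired analysis was possible because the labels give the mice no shared replicate numbers.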
